A study of Mus musculus with 30 samples.

Results

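The genes that encode the subunits of voltage-gated sodium and calcium channels, with the Hcn pacemaker channels, were followed in the cervical spinal cord of mice after a cortical stroke. They were chosen by symbol alone, as every gene named Scn followed by a number and a or b, every gene whose name begins with Cacna, and the numbered Cacnb, Cacng and Hcn genes. This gave 37 genes of the 16995 measured. They fell into 7 families: 8 Cacna1, 4 Cacna2d, 4 Cacnb, 6 Cacng, 7 Scn alpha, 4 Scn beta and 4 Hcn genes. A further 7 genes that carry such names in the mouse annotation (GENCODE M21), Cacna1f, Cacna1s, Cacng1, Cacng6, Scn10a, Scn11a and Scn4a, were not analysed here.

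Female C57BL/6 mice of 2 to 3 months received a photothrombotic stroke of the right sensorimotor cortex, in which a light-activated dye clots the vessels under an illuminated window, or a sham operation without illumination. The intermediate layer of spinal levels C5 and C6 was trimmed with blades from the hemicord that had lost its cortical input, and its total RNA was sequenced after removal of ribosomal RNA. The values came from 29 animals, 1 library each: 5 sham animals (labelled Ctrl), 4 animals at 4 days post injury (dpi) and 5 each at 7, 14, 28 and 42 dpi.

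Voltage-gated sodium channels open on depolarization and carry the rising phase of the action potential. Their alpha subunits form the pore and their beta subunits set gating and anchoring. Voltage-gated calcium channels turn depolarization into calcium entry, which triggers transmitter release, dendritic spikes and gene expression, and are built from a Cacna1 pore with Cacna2d and Cacnb auxiliary subunits. The Cacng genes include the transmembrane AMPA receptor regulatory proteins, which accompany glutamate receptors more than calcium channels, and Hcn channels open on hyperpolarization and pass a depolarizing cation current.

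The start sites of the pore genes that carry most of the results below did not share one kind of promoter. Of the 37 genes, 26 had an entry among the RefSeq promoters of GRCm38.p6. The 120 bases before the start site are shown for the 4 Cacna1 genes that passed the test at 28 dpi and had an entry, and for Scn1a, a sodium channel gene that did not pass. All are written 5′ to 3′ on the strand of the gene, with capitals marking the GC box (GGGCGG) and the CGTCA core of a cAMP response element on either strand. They lay at chr2:24763153-24763272 (minus strand, Cacna1b), chr6:119196410-119196529 (minus, Cacna1c), chr14:30491157-30491276 (minus, Cacna1d), chr15:80287118-80287237 (plus, Cacna1i) and chr2:66440838-66440957 (minus, Scn1a).
Cacna1b: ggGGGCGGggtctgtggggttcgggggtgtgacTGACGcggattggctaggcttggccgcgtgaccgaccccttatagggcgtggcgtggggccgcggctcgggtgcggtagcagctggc
Cacna1c: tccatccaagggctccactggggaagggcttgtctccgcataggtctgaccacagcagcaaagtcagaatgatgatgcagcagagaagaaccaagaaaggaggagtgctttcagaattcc
Cacna1d: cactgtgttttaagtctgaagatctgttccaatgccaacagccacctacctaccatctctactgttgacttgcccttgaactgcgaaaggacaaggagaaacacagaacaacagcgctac
Cacna1i: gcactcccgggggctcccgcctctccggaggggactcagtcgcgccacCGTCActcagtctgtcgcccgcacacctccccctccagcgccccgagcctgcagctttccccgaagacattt
Scn1a: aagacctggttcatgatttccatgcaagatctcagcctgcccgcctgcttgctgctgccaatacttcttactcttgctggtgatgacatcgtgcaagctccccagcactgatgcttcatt

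These stretches were GC-rich in Cacna1b (72.5% G or C) and Cacna1i (70.0%) and close to even in Cacna1c (51.7%), Cacna1d (46.7%) and Scn1a (50.8%). In the whole window of 300 bases around the start site, searched on both strands, GGGCGG stood in 13 of the 26 genes (50%) against 35.7% of all 32851 windows. TATAAA stood in 1 of the 26 (3.8%, against 13.6%), CGTCA in 4 (15.4%, against 20.8%) and the E-box CACGTG in 0 (0.0%, against 7.2%). These are matches of letters in a window and no test was made of them.

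Values are normalized CPM, the reads of a gene relative to the size of its library, as the authors deposited them, given by animal in a fixed order within each group, and changes are log2 fold changes with a standard error (SE) on the scale of log2(value + 0.5). A gene passed the test at an adjusted p under 0.05, from limma with Benjamini-Hochberg adjustment over all 16995 genes. The authors scaled the libraries so that the column sums ran from 714597 to 2256910, and the depth of each library is unknown, so no counting interval could be given. The level of the ribosomal gene Rn18s-rs5, left after ribosomal RNA removal, moved with the time point. It was 30321 to 52929 CPM in sham animals and 32754 to 817780 at 14 dpi. At 28 dpi it was 417971, 779160, 44755, 291950 and 323193 CPM, so 4 of these 5 animals lay far above every sham animal, and at 42 dpi it was 78737 to 457302, above all of them. The results were repeated with this level as a covariate, where 0 of the 37 genes passed at 28 dpi against sham, and without the 5 animals over 400000 (2 at 14 dpi, 2 at 28 dpi and 1 at 42 dpi), which keeps the animals of 28 dpi at 291950 and 323193. The codes of the animals name a number before the dash, and only one such number held animals of more than 1 time point, so these units and the time points can hardly be told apart. The samples are whole tissue, in which fewer cells of a type and less RNA per cell cannot be told apart, and labels tie each library to 1 animal.

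Levels in sham animals, as the mean CPM divided by the exonic length of the gene in kb, covered a wide range. The sodium channel beta subunit gene Scn4b, known for resurgent sodium current, had 86.0 CPM per kb. Hcn2 followed with 58.7, Scn1a with 56.2 and Scn8a with 27.8 CPM per kb. The auxiliary genes Cacnb4 (18.6), Cacng2 (13.5), Cacna2d3 (7.81) and Cacna2d2 (5.62) stood above every calcium channel pore gene. Among the pores the level per kb was 5.42 for Cacna1a, 4.84 for Cacna1b, 3.99 for Cacna1i, 2.82 for Cacna1e, 2.71 for Cacna1g, 2.23 for Cacna1c, 1.66 for Cacna1d and 1.01 for Cacna1h. All 37 genes had a value above 0 in every animal.

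Against sham, 8 of the 37 genes passed the test at 28 dpi, 7 of them higher and 1 lower. This is 21.6%, against 24.9% of all genes (11.9% higher and 13.0% lower), so the share of the channel genes that passed was close to the background. The direction was uneven: 28 of the 37 estimates lay above 0 and their median log2 change was 0.13, beside a median of -0.005 over all genes. The 7 higher genes were Cacna1a, Cacna1b, Cacna1c, Cacna1d, Cacna1i, Cacng2 and Scn8a. In 5 of the 37 genes every animal at 28 dpi lay above every sham animal, which 6.15% of all genes did, and in 0 of them every animal lay below, against 3.75% of all genes. None of the 8 also changed by more than 1.5-fold, as 4.64% of all genes did.

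Against 14 dpi, the time point before it, 15 of the 37 genes passed at 28 dpi, 14 of them higher and 1 lower. The 40.5% that passed stood beside 43.0% of all genes, of which 21.0% were higher and 21.9% lower. The median log2 change of the 37 genes was 0.21, and 34 estimates lay above 0, beside a median of 0.016 over all genes. The values of the 2 time points were apart in every animal for 9 higher genes and for 1 lower gene, against 10.2% and 11.8% of all genes. Only 6 genes, Cacna1a, Cacna1b, Cacna1c, Cacna1e, Cacna1g and Cacna1i, also changed by more than 1.5-fold, as 11.8% of all genes did. The comparisons with sham and with 14 dpi share the animals of 28 dpi, so the counts of the one do not add to those of the other.

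**Figure D1:**
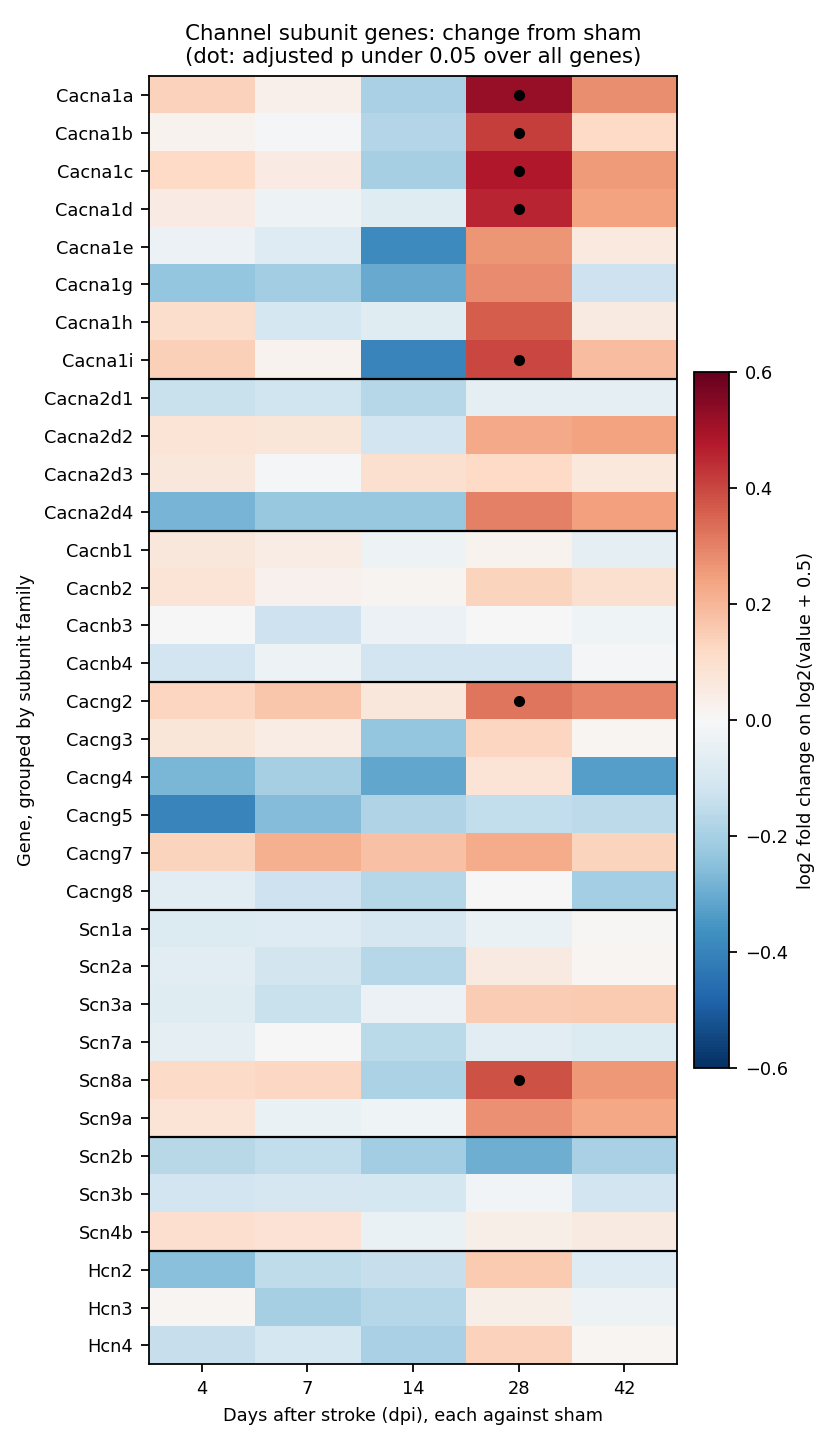
Log2 fold change against sham (colour, from -0.6 to 0.6) of channel genes (rows, by family) at each time point after the stroke (columns), with a dot where limma's adjusted p was under 0.05. Dots stand in the 28 dpi column alone, on 5 Cacna1 genes, Cacng2 and Scn8a.

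The pores of the calcium channels had the largest median change at 28 dpi of the 7 families. All 8 Cacna1 estimates lay above 0 at 28 dpi against sham, from 0.26 to 0.52 with a median of 0.41, and 5 of them passed. Against 14 dpi 7 of the 8 passed, all higher, with a median log2 change of 0.62. The other families had medians between -0.13 and 0.17 against sham.

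Cacna1a encodes the pore of the P/Q-type channel, which drives transmitter release at many central synapses, and spans 251.81 kb at chr8:84388440-84640246 on the plus strand. Its values were 58.8, 63.3, 55.5, 66.7 and 65.2 CPM in the sham animals, and 56.5, 54.4, 50.3, 42.7 and 69.4 CPM at 14 dpi. At 28 dpi they were 73.7, 88.0, 88.2, 89.2 and 108.6 CPM. Every animal at 28 dpi lay above every sham and every 14 dpi animal. The mean was 61.9 ± 4.65 CPM in sham and 89.5 ± 12.4 CPM at 28 dpi (SD, n = 5 each). It rose by a fitted log2 change of 0.52 (1.435-fold, SE 0.11, adjusted p = 0.00254) against sham and of 0.71 (adjusted p = 3.58e-05) against 14 dpi. At 42 dpi the values were 80.1, 67.9, 89.3, 69.3 and 70.6 CPM, all above sham, but the log2 change of 0.28 did not pass (adjusted p = 0.234).

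Cacna1b, the pore of the N-type channel of presynaptic terminals, lies at chr2:24603887-24763152 on the minus strand. It had 54.2, 54.4, 38.4, 45.8 and 47.8 CPM in the sham animals and 58.4, 67.3, 64.1, 64.0 and 66.0 CPM at 28 dpi. The 2 groups did not overlap, and the log2 change was 0.42 (SE 0.10, adjusted p = 0.00592). At 14 dpi it had 48.3, 43.1, 36.1, 40.2 and 44.0 CPM, so the rise from 14 to 28 dpi was 0.59 on the log2 scale (adjusted p = 7.69e-05). Cacna1e, which forms the R-type pore, had 76.4, 80.2, 58.7, 66.4 and 73.4 CPM in sham, 67.7, 51.8, 40.8, 55.7 and 58.0 CPM at 14 dpi and 83.5, 87.6, 81.2, 76.8 and 96.1 CPM at 28 dpi. It did not pass against sham (0.26, SE 0.12, adjusted p = 0.114) and overlapped with it, and was higher than at 14 dpi in every animal (0.64, adjusted p = 0.000182).

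The L-type pores Cacna1c and Cacna1d, which link depolarization to gene expression and to plateau potentials, rose as well. Cacna1c (chr6:118587240-119196418, minus strand) covers 609.18 kb. It had 52.3, 48.7, 41.6, 45.9 and 47.4 CPM in sham and 60.7, 74.1, 59.6, 66.0 and 69.9 CPM at 28 dpi. No animal overlapped, and the mean was 47.2 ± 3.92 CPM in sham and 66.1 ± 6.12 CPM at 28 dpi (SD, n = 5 each), a fitted log2 change of 0.48 (1.395-fold, SE 0.09, adjusted p = 0.00164). Against 14 dpi, where it had 45.2, 41.6, 35.6, 37.1 and 45.9 CPM, it rose by 0.68 (adjusted p = 1.58e-05). Cacna1d (chr14:30039949-30491156, minus strand) had 23.1, 21.6, 20.3, 20.7 and 19.1 CPM in sham and 22.8, 34.6, 28.6, 29.8 and 30.2 CPM at 28 dpi. Here 4 of the 5 animals at 28 dpi lay above all sham animals, and the log2 change was 0.46 (SE 0.10, adjusted p = 0.00218). Against 14 dpi, with 18.9, 19.3, 21.1, 16.9 and 23.7 CPM, it was 0.53 (adjusted p = 9.96e-05). Exons of Cacna1d overlap those of Chdh on the opposite strand, and since no source used here states that the libraries kept strand, reads of the 2 genes may not have been told apart. The same limit holds, with other genes, for Cacna1a, Cacna1h, Cacna2d2, Cacnb1, Cacnb2, Cacnb4, Cacng2, Hcn3 and Scn9a.

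The T-type pores, which open near rest and support burst firing, differed in their call. Cacna1i (chr15:80287238-80398279, plus strand) had 42.4, 40.5, 32.7, 38.1 and 42.9 CPM in sham, 31.2, 30.3, 27.5, 26.6 and 32.9 CPM at 14 dpi and 45.9, 47.9, 53.9, 47.7 and 66.0 CPM at 28 dpi. The animals at 28 dpi lay above both other groups without overlap. The log2 change was 0.40 against sham (SE 0.14, adjusted p = 0.0414), which was lost in 8 of the 10 fits that left out 1 animal (highest adjusted p 0.128), and 0.80 against 14 dpi (adjusted p = 0.000105), a fitted fold of 1.737. Cacna1g had 30.7, 29.0, 25.6, 26.1 and 26.2 CPM in sham and 31.4, 35.4, 31.9, 30.8 and 38.9 CPM at 28 dpi. These groups did not overlap either, yet the log2 change of 0.28 (SE 0.11) did not pass (adjusted p = 0.0627), while that against 14 dpi did (0.59, adjusted p = 0.000197). Cacna1h, at 9.2 to 19.9 CPM at 28 dpi, passed in neither comparison (0.36, adjusted p = 0.141, and 0.44, adjusted p = 0.0529).

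**Figure D2:**
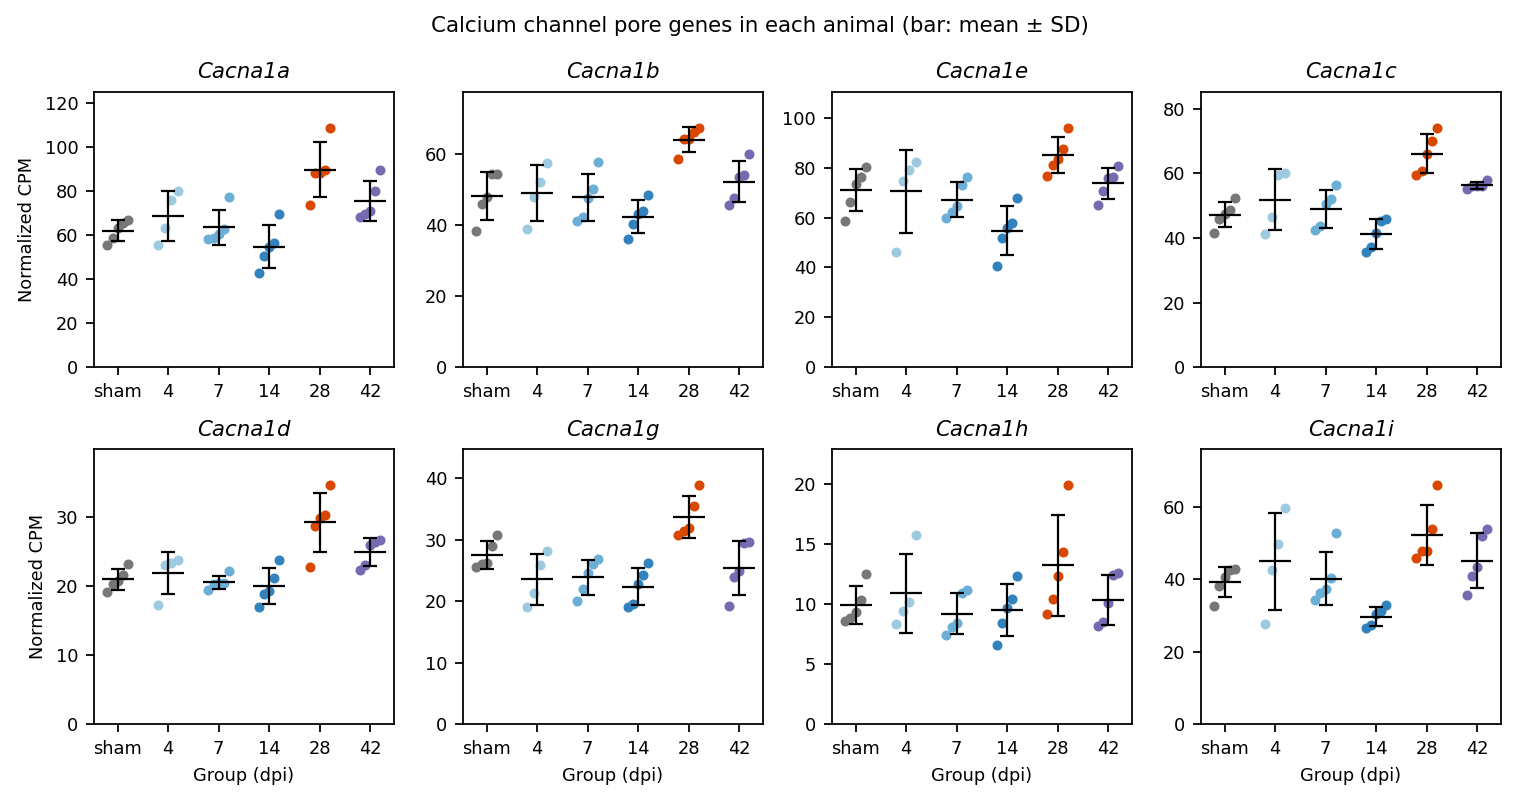
Normalized CPM of the 8 Cacna1 genes in each animal (points) by group, from sham to 42 dpi, with the mean and SD (bars), each axis starting at 0. The 28 dpi points of Cacna1a, Cacna1b, Cacna1c, Cacna1g and Cacna1i lie above all sham points.

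The auxiliary alpha2delta subunits, which carry calcium channels to the membrane and of which Cacna2d1 and Cacna2d2 bind gabapentin, did not pass against sham (0 of 4). Cacna2d2 had 43.5, 46.8, 39.4, 43.3 and 50.4 CPM in sham, 43.8, 44.3, 34.7, 40.1 and 43.5 CPM at 14 dpi and 52.1, 49.3, 50.7, 48.9 and 60.8 CPM at 28 dpi. It overlapped with sham (0.23, adjusted p = 0.0769) and lay above every 14 dpi animal (0.34, SE 0.10, adjusted p = 0.00492). The low gene Cacna2d4 had 2.8, 3.2, 3.0, 3.6 and 1.8 CPM at 14 dpi and 4.7, 5.4, 3.5, 4.8 and 3.4 CPM at 28 dpi, groups that overlapped, and passed between them (0.53, adjusted p = 0.00822). Neither Cacna2d2 nor Cacna2d4 kept its call against 14 dpi after the corrections for length given below. Cacna2d3 had 68.1, 68.1, 77.2, 64.2 and 63.1 CPM in sham and 65.4, 76.7, 68.2, 82.2 and 78.6 CPM at 28 dpi, with a log2 change of 0.12 (adjusted p = 0.326). Cacna2d1 had a log2 change of -0.06 (adjusted p = 0.801).

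The beta subunits, intracellular partners that stabilise the pore and shape its gating, did not pass in any of the 7 comparisons. Cacnb4, the most abundant of them, had 174.5, 175.2, 161.4, 158.0 and 164.3 CPM in sham and 158.1, 149.7, 136.6, 156.5 and 169.5 CPM at 28 dpi, with a log2 change of -0.12 (SE 0.06, adjusted p = 0.146). Cacnb2 had 37.0, 45.5, 39.5, 40.7 and 37.9 CPM in sham and 43.0, 49.0, 36.1, 44.8 and 48.2 CPM at 28 dpi (0.13, adjusted p = 0.158). The groups of both genes overlapped. Cacnb1 (0.02) and Cacnb3 (0.00) were close to 0 on the log2 scale, with adjusted p of 0.905 and 0.993.

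Pores and beta subunits could be set against each other inside each library, where the scaling between libraries drops out. The summed CPM of the 8 Cacna1 genes divided by that of the 4 Cacnb genes was 1.27 to 1.46 in sham, 1.11 to 1.43 at 14 dpi and 1.71 to 2.09 at 28 dpi. The 28 dpi animals lay above all sham and 14 dpi animals. At 4 dpi (1.30 to 1.85), 7 dpi (1.31 to 1.54) and 42 dpi (1.35 to 1.74) the ratio overlapped with sham. The sum of the Cacnb genes itself was 221.1 to 244.9 CPM in sham and 200.5 to 244.6 CPM at 28 dpi, while that of the Cacna1 genes was 282.1 to 348.2 and 385.6 to 486.1 CPM. Cacnb4 made up most of the Cacnb sum, with a mean of 166.7 of 231.0 CPM in sham. Gene length and GC content do not drop out of this ratio, which is a description and was given no test.

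Among the Cacng genes, Cacng2 (stargazin), which brings AMPA receptors to the synapse, passed against sham. It had 59.8, 76.6, 77.9, 77.8 and 78.9 CPM in sham and 88.3, 111.3, 99.0, 76.5 and 90.7 CPM at 28 dpi. In 4 of the 5 animals the value exceeded all sham values, and the log2 change was 0.32 (SE 0.11, adjusted p = 0.038). The call held in 5 of the 10 fits that left out 1 animal. Exons of Cacng2 overlap those of A730060N03Rik on the opposite strand. Against 14 dpi its change of 0.25 did not pass (adjusted p = 0.0726).

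Cacng4, a related AMPA receptor partner of low level, followed another course. It had 6.5, 7.0, 6.3, 6.6 and 7.0 CPM in sham, 5.7, 4.8, 5.9, 4.5 and 5.6 CPM at 14 dpi and 7.1, 7.6, 7.4, 5.7 and 7.9 CPM at 28 dpi, and 4.8, 5.2, 5.4, 5.1 and 5.6 CPM at 42 dpi. The sham and 28 dpi values overlapped, those at 14 and 42 dpi lay below every sham animal, and those at 42 dpi lay below every animal at 28 dpi. It passed from 14 to 28 dpi (0.40, adjusted p = 0.00107) and from 28 to 42 dpi (-0.41, SE 0.09, adjusted p = 0.0269), the latter in 5 of the 10 fits that left out 1 animal. Cacng3 passed from 14 to 28 dpi as well (0.36, adjusted p = 0.0387) with 4.1, 2.5, 4.2, 4.3 and 4.7 CPM at 14 dpi and 5.8, 3.9, 5.0, 4.5 and 6.9 CPM at 28 dpi, 2 groups that overlapped, in 7 of the 10 fits that left out 1 animal. Cacng5 (-0.15), Cacng7 (0.22) and Cacng8 (0.00) did not pass against sham, with adjusted p of 0.724, 0.186 and 0.997.

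The sodium channel pores did not move as one. Scn8a, the main pore of mature nodes of Ranvier and of axon initial segments, lies at chr15:100869858-101045938 on the plus strand. It had 457.0, 490.6, 374.6, 454.2 and 413.1 CPM in sham, 393.2, 382.4, 372.7, 323.6 and 450.7 CPM at 14 dpi and 485.0, 592.9, 494.2, 604.0 and 687.5 CPM at 28 dpi. Of the animals at 28 dpi 4 of 5 lay above all sham animals and all lay above those of 14 dpi. The fitted fold was 1.302 against sham (log2 change 0.38, SE 0.10, adjusted p = 0.00737) and 1.484 against 14 dpi (0.57, adjusted p = 6.94e-05).

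Scn1a, a sodium channel pore of many fast-spiking inhibitory neurons, gave no such change. It had 664.8, 700.7, 616.2, 587.8 and 562.9 CPM in sham and 578.7, 591.4, 495.3, 693.5 and 700.1 CPM at 28 dpi. The groups overlapped and the log2 change was -0.04 (SE 0.09, adjusted p = 0.755). The ratio of Scn8a to Scn1a within a library was 0.608 to 0.773 in sham, 0.561 to 0.772 at 14 dpi, 0.838 to 1.003 at 28 dpi and 0.722 to 0.979 at 42 dpi. At 28 dpi this ratio lay above all sham and 14 dpi animals, which is given as a description with no test. Scn2a (0.06), Scn3a (0.15), Scn9a (0.27) and Scn7a (-0.06), the last a sensor of sodium concentration rather than of voltage, did not pass, with adjusted p from 0.103 to 0.808.

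The beta subunits Scn2b, Scn3b and Scn4b did not pass against sham. Scn2b had 85.0, 83.0, 67.4, 64.6 and 80.0 CPM in sham and 69.5, 44.5, 69.6, 62.2 and 65.5 CPM at 28 dpi, with a log2 change of -0.295 (SE 0.12, adjusted p = 0.0584). Scn4b had 424.1, 444.6, 417.4, 439.6 and 417.6 CPM in sham and 418.0, 417.8, 438.5, 421.4 and 503.3 CPM at 28 dpi. Scn3b and Scn4b did not pass, with log2 changes of -0.02 and 0.03 (adjusted p = 0.951 and 0.713).

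**Figure D3:**
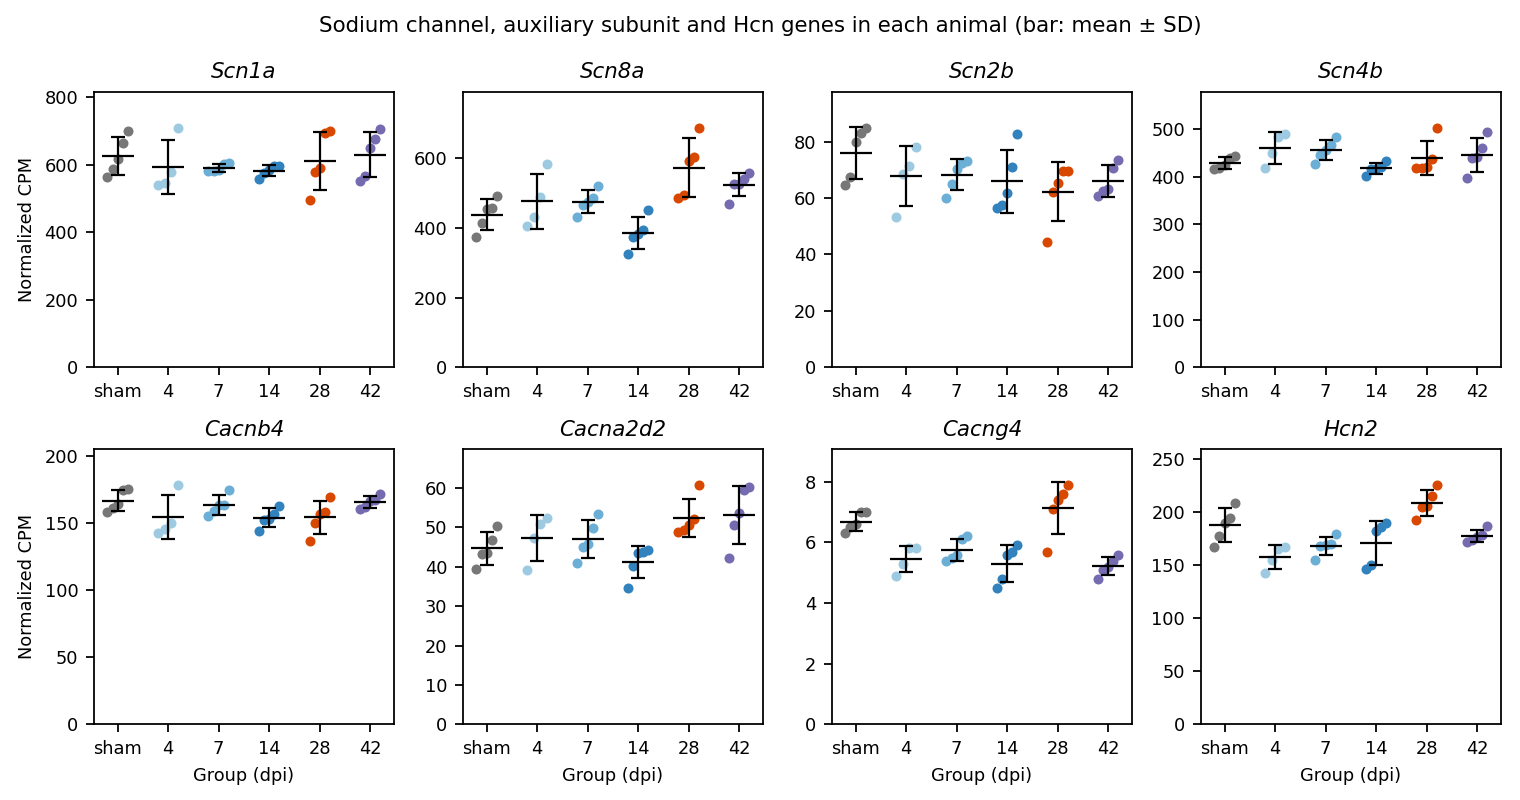
Normalized CPM of Scn1a, Scn8a, Scn2b, Scn4b, Cacnb4, Cacna2d2, Cacng4 and Hcn2 in each animal (points) by group, with the mean and SD (bars), each axis starting at 0. At 28 dpi Scn8a lies high, while Scn1a and Scn4b overlap with sham.

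Hcn2 and Hcn4 passed against 14 dpi and not against sham. Hcn2, the most abundant of them here, had 177.3, 167.0, 195.1, 208.5 and 190.4 CPM in sham, 150.0, 186.6, 190.3, 147.0 and 182.1 CPM at 14 dpi and 192.9, 204.9, 215.2, 205.6 and 226.0 CPM at 28 dpi. It overlapped with sham (0.16, adjusted p = 0.0988) and exceeded every 14 dpi animal (0.29, SE 0.07, adjusted p = 0.00145). Hcn4, the channel of slow pacemaker current, had 5.8, 7.5, 7.3, 6.1 and 8.6 CPM at 14 dpi and 8.0, 7.1, 9.0, 10.1 and 11.1 CPM at 28 dpi. These overlapped, and the log2 change against 14 dpi was 0.34 (adjusted p = 0.0344), a call kept in 5 of the 10 fits that left out 1 animal. Hcn3 (0.04, adjusted p = 0.888) did not pass against sham.

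In the first 2 weeks no channel gene passed against sham. The background was 0.106% of all genes at 4 dpi, 0.0294% at 7 dpi and 0.00588% at 14 dpi. Among the 37 genes, 2, 2 and 5 had an unadjusted p under 0.05 at these time points, beside 5.14%, 5.84% and 11.6% of all genes, and the lowest adjusted p were 0.337, 0.84 and 0.381. Cacng4 lay below every sham animal at 4 dpi (4.9, 5.8, 5.3 and 5.8 CPM) and 7 dpi (5.6, 6.1, 5.5, 6.2 and 5.4 CPM) as at 14 dpi, with log2 changes of -0.27, -0.20 and -0.31 and adjusted p of 0.594, 0.84 and 0.381. It was the only 1 of the 37 to lie wholly below sham at each of the 3 time points, as 0.612%, 0.583% and 0.953% of all genes did. At 14 dpi only 5 of the 37 estimates lay above 0, and the median was -0.14, beside -0.009 over all genes. Cacna1i and Cacna1e had the lowest estimates then, -0.40 and -0.38, and did not pass (adjusted p = 0.387 and 0.381).

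At 42 dpi 0 of the 37 genes passed against sham (limma), against 0.0235% of all genes, and 7 of them had an unadjusted p under 0.05, as 14.8% of all genes had. Cacna1a and Cacna1c, the latter with 55.9, 55.1, 58.0, 56.0 and 56.1 CPM, still lay above all sham animals, as 2.21% of all genes did. Their log2 changes were 0.28 and 0.25, with adjusted p of 0.234 and 0.196. Cacng4 lay below all sham animals, as 1.10% of all genes did (-0.33, adjusted p = 0.111). Scn8a had 527.1, 525.5, 556.0, 468.3 and 538.8 CPM, with 4 of the 5 above all sham animals and a log2 change of 0.26 (adjusted p = 0.207).

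From 28 to 42 dpi 1 of the 37 genes passed, Cacng4, which is 2.7% against 1.94% of all genes. Cacna1c, Cacna1g, Cacng4 and Hcn2 were lower in every animal at 42 dpi than in every animal at 28 dpi, and 0.924% of all genes were. Cacna1g had 24.9, 19.2, 29.6, 23.9 and 29.5 CPM at 42 dpi and a log2 change of -0.41 that missed the limit (adjusted p = 0.0508). Hcn2 had 173.5, 178.4, 187.5, 177.1 and 171.9 CPM (-0.23, adjusted p = 0.0693), and Cacna1c had a change of -0.23 (adjusted p = 0.161). Cacna1a kept overlapping values.

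The channel genes are long, and their length ran with their change. Their median span from start to end was 111 kb, against 21.7 kb over all genes, and 20 of the 37 spanned more than 100 kb. Across the 37 genes the log2 span and the log2 change at 28 dpi against sham had a Pearson r of 0.485 and a Spearman rho of 0.439. Across 16975 genes these were 0.128 and 0.198. Genes share libraries and are not independent, so no p is given.

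Over all genes the share that rose at 28 dpi was higher in the classes above 30 kb than in those below. It was 10% of the 5075 genes under 10 kb, where 15.9% fell, 8.34% of the 5034 genes of 10 to 30 kb, where 16.4% fell, and 12.4% of the 4468 genes of 30 to 100 kb, where 10.5% fell. It was 21.0% of the 1851 genes of 100 to 300 kb, where 4.81% fell. Of the 547 genes over 300 kb 27.4% rose and 3.29% fell. Of the channel genes 13 spanned 100 to 300 kb, and 5 of them rose with a median log2 change of 0.27, beside 0.12 over all genes of that class. In the 7 over 300 kb, 2 rose and the median was 0.13, beside 0.15. None of the 17 shorter channel genes rose.

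**Figure D4:**
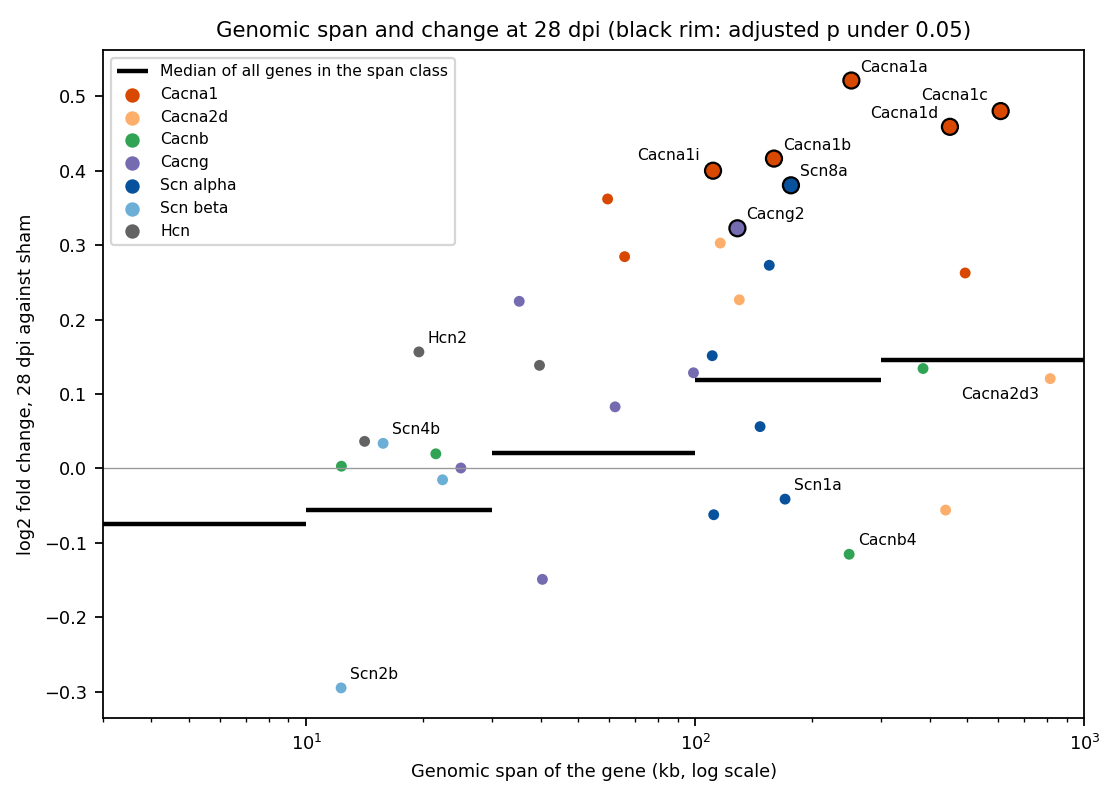
Log2 fold change at 28 dpi against sham (vertical) of channel genes by genomic span in kb (horizontal, log scale), coloured by family, with a black rim where the adjusted p was under 0.05. The black lines give the median of all genes in each span class, from -0.075 under 10 kb to 0.146 over 300 kb, and all 8 Cacna1 genes lie above them.

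With the trend of change on span taken out of each library, the test at 28 dpi against sham gave 7 channel genes, 5 higher and 2 lower, beside 9.25% of all genes higher and 16.7% lower in that fit. Cacna1a (0.37), Cacna1b (0.28), Cacna1c (0.31), Cacna1d (0.29) and Scn8a (0.24) were higher, Cacnb4 (-0.27) was among the lower, and Cacng2 and Cacna1i no longer passed. A correction for transcript length and GC content, added after seeing the data, gave 3 higher, Cacna1a (0.37), Cacna1c (0.21) and Cacna1d (0.25), and 4 lower, among them Cacnb4 (-0.28), Scn1a (-0.21) and Scn2b (-0.37). In that fit 8.96% of all genes were higher and 18.6% lower. Cacna1b (adjusted p = 0.0505), Cacna1i, Cacng2 and Scn8a did not pass there. The split of higher to lower calls was thus 7 to 1, 5 to 2 and 3 to 4 in the 3 fits. Cacna1a, Cacna1c and Cacna1d were higher in all 3. Against 14 dpi, Cacna2d2, Cacna2d4 and Hcn4 passed in neither correction. Cacng3 did not pass there after the span correction. Cacna1e did not pass there after the correction for length and GC content (0.18, limma, adjusted p = 0.157). The other genes named as passing against 14 dpi kept their call in both corrections.

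Another scaling of the libraries turned the sign of most of these values. The totals used for it include Rn18s-rs5. In sham animals this gene had 30321 to 52929 CPM, with totals of 777344 to 818510. At 28 dpi it had 44755 to 779160 CPM, with totals of 790540 to 2256910. When every library was given an equal total, the all-gene median at 28 dpi against sham moved to -0.725 and the split became 0 higher to 22 lower, where 66.0% of all genes were lower. Cacna1a then had a log2 change of -0.26, Cacna1c of -0.30 and Scn8a of -0.41, each above that median. With the level of Rn18s-rs5 as a covariate 0 of the 37 genes, and 0 of all genes, passed at 28 dpi against sham (limma). Cacna1d had a change of 0.43 in that fit and an adjusted p of 0.0616. Against 14 dpi 14 of the 37 passed with the same covariate, 13 higher and 1 lower, beside 19.6% and 19.9% of all genes. Without the 5 animals with Rn18s-rs5 over 400000, 6 passed against sham, all higher, as 8.23% of all genes were: Cacna1a (0.62), Cacna1b (0.43), Cacna1c (0.46), Cacna1d (0.49), Cacna1i (0.50) and Scn8a (0.44). Against 14 dpi 13 passed without them, beside 33.7% of all genes.

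**Figure D5:**
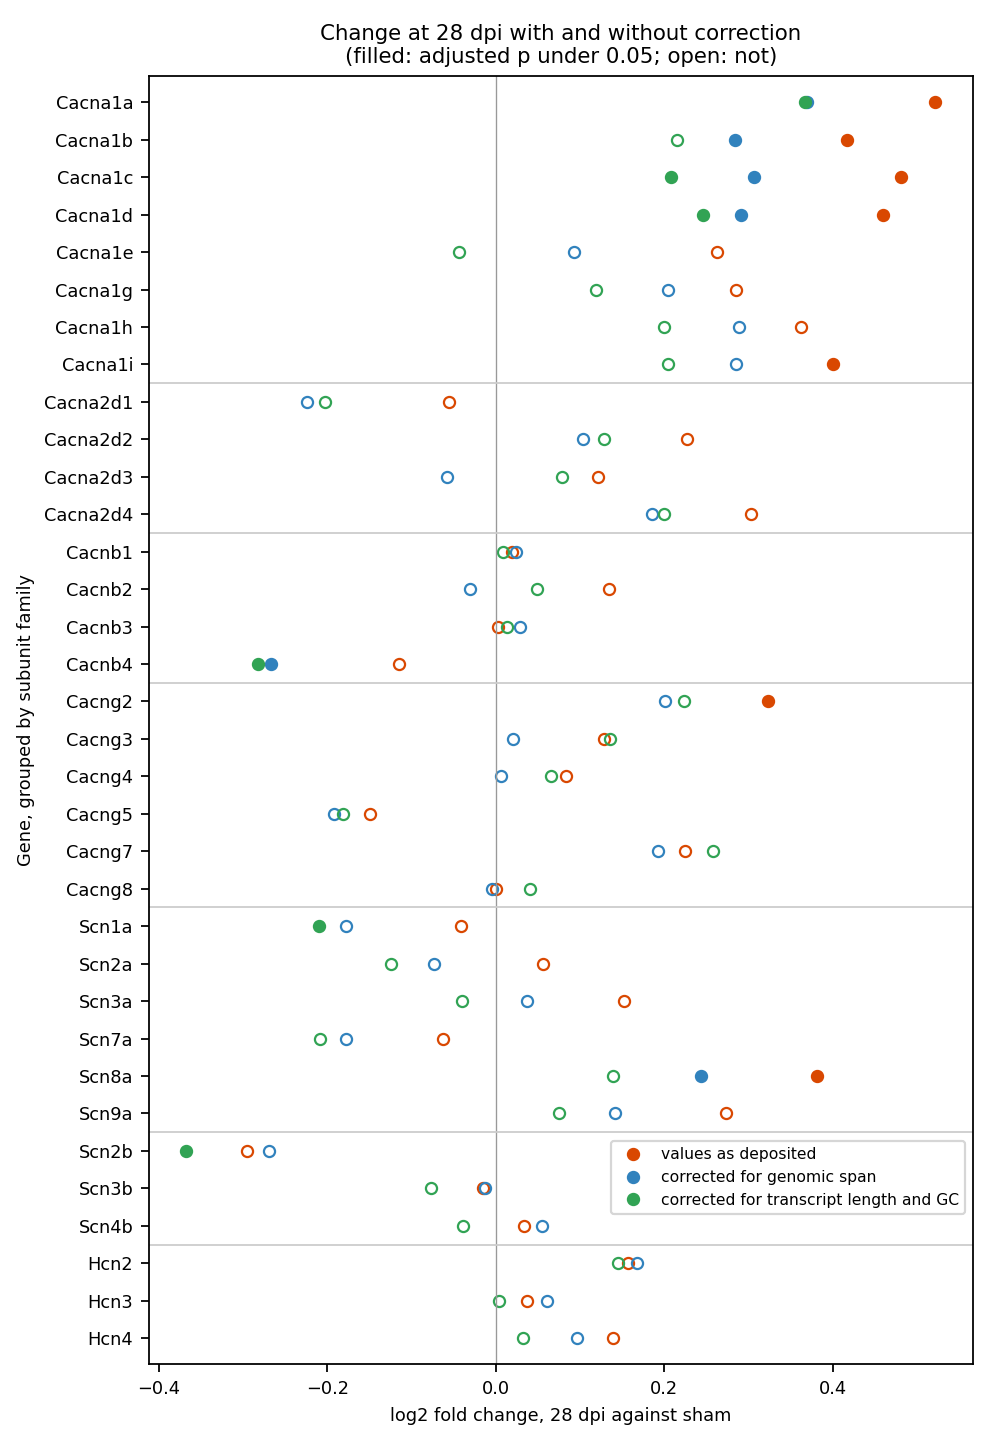
Log2 fold change of channel genes at 28 dpi against sham in the deposited scaling, after correction for genomic span and after correction for transcript length and GC content, with filled points where the adjusted p was under 0.05. Cacna1a, Cacna1c and Cacna1d stay filled and above 0, and Cacnb4 is filled and below 0, in both corrections.

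Genes that act beside the sodium channels moved in both directions. Of 16 sodium channel partners, 5 rose and 3 fell at 28 dpi against sham, and 6 rose and 3 fell against 14 dpi. Ank3, ankyrin G, which anchors sodium channels at the axon initial segment, rose by 0.53 (adjusted p = 0.003), Nfasc (neurofascin) by 0.42 and Unc80, a part of the sodium leak channel, by 0.32, while Scnm1 fell by 0.34. Of 16 genes of the node of Ranvier and the paranode, which include Ank3 and Nfasc, 8 rose and 1 fell. The potassium channel Kcnq3 rose by 0.33, and Hapln2, a matrix link protein of the node, fell by 0.45. Against sham 11.9% of all genes were higher and 13.0% lower, and against 14 dpi 21.0% and 21.9%, and these lists were not set against other genes by a test.

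Of 15 measured calcium channel partners and inhibitors 3 rose and 3 fell. Bsn (bassoon), a scaffold of the presynaptic active zone, rose by 0.82 and Rimbp2, which ties calcium channels to release sites, by 0.29, while the calmodulin genes Calm2 and Calm3 fell by 0.41 and 0.27. Of 17 genes of calcium release and handling 4 rose and 1 fell against sham, and 9 rose and 2 fell against 14 dpi, where 21.0% of all genes were higher and 21.9% lower. The plasma membrane pump Atp2b2 rose by 0.42, the ryanodine receptors Ryr3 and Ryr2 by 0.32 and 0.28, and the calcium buffer Pvalb fell by 0.46. Of 11 AMPA receptor genes and partners 2 rose, Shisa6 by 0.65 and the receptor subunit Gria3 by 0.28. Of 3 measured Hcn partners 0 passed against sham, with the filament-binding Flna closest at 0.25 (limma, adjusted p = 0.073), and 1 rose against 14 dpi, beside 21.0% of all genes. None of the genes of these 6 lists passed at 4 or 42 dpi against sham.

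Markers of the cell types of the cord were read at 28 dpi as well, where 11.9% of all genes were higher and 13.0% lower against sham. The marker lists were not set against other genes by a test. Of 6 oligodendrocyte markers 4 fell at 28 dpi against sham, among them Mobp by 0.47, Mog by 0.44 and Cnp by 0.35. Their summed level was 6223 to 9261 CPM in sham and 4476 to 6587 CPM at 28 dpi. Of 10 neuron markers 0 rose and 1 fell, Snap25 by 0.30, and their sum was 6791 to 9153 CPM in sham, 7584 to 10200 at 14 dpi and 6968 to 7268 at 28 dpi. Against 14 dpi 5 of the 10 neuron markers fell and 0 rose, beside 21.9% and 21.0% of all genes.

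Of 6 motor neuron markers 0 passed, with a sum of 80.7 to 315.4 CPM in sham, 136.3 to 437.0 at 14 dpi and 136.1 to 286.2 at 28 dpi. Of 7 astrocyte markers 1 rose (Slc1a2, 0.29) and 2 fell, with sums of 2667 to 3234 and 3024 to 3459 CPM in sham and at 28 dpi. Of 8 microglia markers 1 rose (Cx3cr1, 0.34), with sums of 113.7 to 128.7 and 108.3 to 148.1 CPM. The microglia sum was 143.2 to 222.9 CPM at 4 dpi and 129.7 to 172.9 CPM at 14 dpi, both above every sham animal. At 7 dpi it overlapped with sham (116.4 to 189.0 CPM). Of 4 oligodendrocyte precursor markers 1 fell (Gpr17, -0.34), with sums of 150.5 to 182.8 and 140.9 to 158.6 CPM.

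Of 5 endothelial markers 1 rose (Flt1, 0.36) and 1 fell (Ly6c1, -0.54), with sums of 76.2 to 109.9 and 85.3 to 136.6 CPM. Of 5 pericyte and smooth muscle markers (96.3 to 119.8 and 92.5 to 114.8 CPM) and 3 ependymal markers (16.9 to 33.7 and 20 to 29.6 CPM) 0 passed. Of 3 blood markers 1 rose (Alas2, 0.91), with sums of 5.2 to 9.8 and 5.6 to 15.7 CPM. Of these markers only the ependymal Tmem212 was at 0 in any animal, in 3 of them. The part of these cell types in the changes of the channel genes was not tested.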

How the data were processed

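RNA of the intermediate spinal layer of 29 mice was measured. A 4 dpi animal in the labels, of 30 in all, had no column of values and was not used. The authors aligned single-end reads of ribosomal RNA-depleted libraries to mm10 with SALMON 0.8.1, summed them with Tximport 1.0.3 and normalized with edgeR 3.14.0 in R 3.4.1, per the labels and the study's methods. The deposited values are normalized CPM rounded to 0.1, treated here as a score with no recoverable counts or depth. Whether the libraries kept strand is not given in the sources used here.

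All 16995 genes were fitted with limma 3.58.1 in R 4.3.3 (empirical Bayes with a trend) on log2(value + 0.5), with 6 group means over all animals and 7 comparisons, and p-values were Benjamini-Hochberg adjusted over all genes within each comparison. The limma test stood in for a count test because the values are not counts. Corrections for span and for transcript length and GC content subtracted a spline with 5 degrees of freedom from each library. Promoters were taken from RefSeq. The code was tested on simulated data. Members given by animal were those that passed in any comparison, and in each family the one with the highest sham mean and the one with the largest change at 28 dpi. For partner and marker lists, at most the 4 passing genes of largest change were named. Some genes, counted among the members and lists, are not reported here by name. The members and all gene lists were chosen with earlier results of these data known. Lists of skeletal muscle, dorsal root ganglion and Schwann cell markers were not analysed here. P-values measure the spread between animals.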

Additional observations from a re-analysis of the deposited data

Results flagged for a closer look

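In 6 sets of values 1 animal stood apart from the rest of its group by a gap test at the 95% level, which chance meets in about 1 of 20 groups: Cacna1a at 7 dpi (77.3 CPM), Cacna1d at 4 dpi (17.3), Cacna2d2 at 28 dpi (60.8), Cacng2 in sham (59.8), Cacng3 at 14 dpi (2.5) and Scn4b at 28 dpi (503.3). The gap test was run in each of the 6 groups of every gene given by animal. No correction was made for that number, so sets of this kind can arise by chance. The change from sham differed between 14 and 28 dpi, tested as the difference of these time points with limma, in these genes. The log2 difference (28 minus 14 dpi) was 0.71 for Cacna1a, 0.59 for Cacna1b, 0.68 for Cacna1c, 0.53 for Cacna1d, 0.64 for Cacna1e, 0.59 for Cacna1g and 0.80 for Cacna1i. It was 0.34 for Cacna2d2, 0.53 for Cacna2d4, 0.36 for Cacng3 and 0.40 for Cacng4. It was 0.29 for Hcn2, 0.34 for Hcn4 and 0.57 for Scn8a. Between 28 and 42 dpi the change of Cacng4 differed by -0.41.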

How the results depend on the processing

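The depth of the libraries is unknown, so it could not be set beside any value. At 28 dpi against sham 8 channel genes passed. A fold limit of 1.5 left 0, rescaling each library to the same sum gave 22 (all lower), Rn18s-rs5 as a covariate gave 0, and leaving out 1 animal gave 5 to 9, with 5 without sham A12-1, without 28 dpi A3-3 or without 28 dpi A4-4. Against 14 dpi 15 passed, 6 with the fold limit, 0 after rescaling and 14 to 18 with 1 animal left out. From 28 to 42 dpi 1 passed. This became 0 with the fold limit, after rescaling, without the 5 animals rich in Rn18s-rs5 (chosen after seeing the data) and with only those 2 groups fitted, 2 with a pseudocount of 1, with a mean of at least 1 or after quantile normalization, 3 with the label unit as a block or after the span correction, and 0 to 4 with 1 animal left out. The counts against sham at 4, 7, 14 and 42 dpi stayed at 0 in these alternatives. After rescaling, the change at 28 dpi against sham turned to -0.26 for Cacna1a, -0.37 for Cacna1b, -0.30 for Cacna1c, -0.31 for Cacna1d, -0.38 for Cacna1i, -0.66 for Cacna2d3, -0.65 for Cacnb2, -0.46 for Cacng2, -0.76 for Scn4b and -0.41 for Scn8a, against a median of all genes of -0.725. The span correction turned Cacna2d3 to -0.058 and Cacnb2 to -0.030, and that for length and GC content Scn4b to -0.038. With 1 animal left out Scn1a ran from -0.093 to 0.032 and Scn4b from -0.016 to 0.051. Median centring, a pseudocount of 0.05 or 1 and a filter at a mean of 1 kept the direction and call of all 30 log2 changes followed for the channel genes. For the results that moved in other alternatives the cause was not tested. No paired analysis was possible because the animal codes pair no animals across groups.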
